A study of Saccharomyces cerevisiae with 4 samples.

Results

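The 60 genes described here encode proteins of the budding yeast spliceosome. They were chosen by name, as proteins of the small nuclear ribonucleoprotein particles (snRNPs), Prp proteins and proteins of the complex around Prp19, out of 6659 genes with an expression value. All 60 were found by matching symbols to systematic names in the R64 annotation, and all 60 passed a minimum mean of 1 RPKM (reads scaled to gene length and sequencing depth) over the libraries. The series holds 1 rRNA-depleted RNA library from each of 4 haploid Saccharomyces cerevisiae strains in the BY4741/2 background. The strains were ume6∆snf2∆ (both genes replaced, by KanMX and NatMX), ume6∆ (ume6 replaced by KanMX), snf2∆ (snf2 replaced by NatMX) and wild type (WT). All 4 carried the his-, ura- and leu- markers and were grown in YPD with glucose to an OD600 of 0.5 to 0.6. Snf2 is the ATPase of the Swi/Snf nucleosome remodeller, and Ume6 is a DNA-binding repressor of meiotic genes.

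The spliceosome removes introns from pre-mRNA and assembles anew on each intron. The U1 snRNP pairs with the 5′ splice site, the U2 snRNP with the branch site, and the U4/U6·U5 tri-snRNP then joins and is rearranged into the catalytic form, to which the complex around Prp19 (NTC) is bound. RNA-dependent ATPases of the Prp family drive the steps, from Prp5 and Prp28 early on to Prp2, Prp16, Prp22 and Prp43 at activation, second step, release and disassembly. In yeast, few genes have introns, but the ribosomal protein genes among them give a large share of all messages. By role the members were 8 proteins of the U1 snRNP, 11 of the U2 snRNP and prespliceosome, 5 of the Sm ring shared by U1, U2, U4 and U5, 14 of the tri-snRNP and its snRNPs, 14 of the NTC and proteins bound to it, and 8 step factors. The last 2 groups are the later-step factors.

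The libraries had been scaled to 17.4 M reads in the double deletion, 30.2 M in ume6∆, 25.7 M in snf2∆ and 27.7 M in WT. The least covered member had 173 to 299 reads and the median member 692 to 824 reads in each library. No strain was replicated, so no p-value is given and any difference is one between single libraries, and each 95% interval is a Clopper-Pearson interval of a read ratio that covers counting error only. A log2 change is a difference of log2(RPKM + 1), and a gene is called higher or lower at 2-fold on that scale. SNF2 had 0.157 RPKM in the double deletion, 36.9 in ume6∆, 0.107 in snf2∆ and 67.9 in WT, and UME6 had 0.137, 0.0132, 19.6 and 34.6 RPKM in the same strains. The libraries without SNF2 also differed in genes of mating type. The a-cell receptor gene STE2 had 15.7 RPKM in the double deletion and 6.29 in snf2∆, against 296 in ume6∆ and 416 in WT, and the α-cell receptor gene STE3 had 151 and 165 RPKM, against 3.80 and 3.60, in the same strains. The double deletion stood apart in MET17, with 2350.2 RPKM against 0.817 to 1.12 elsewhere, and in LYS2, with 0.385 RPKM against 91.0 in ume6∆, 303 in snf2∆ and 137 in WT. Where a library without SNF2 is set against one with it, mating type thus cannot be told apart from the deletion. In every comparison with the double deletion, the differences in MET17 and LYS2 cannot be told apart from the deletions either. Between ume6∆ and WT these genes showed no such switch, but they do not cover every strain difference. Fewer cells of a type and less RNA per cell cannot be told apart in bulk RNA.

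Spliceosome protein genes were expressed at modest and similar levels. Their median level was 38.9 RPKM in the double deletion, 25.7 in ume6∆, 28.5 in snf2∆ and 29.7 in WT, while the median of all genes was 40.9, 30.8, 35.9 and 39.5 RPKM. In WT, 55 of the 60 lay within 2-fold of the members' median, and 38.6% of all genes lay below that median. The Sm genes had the highest group median in the double deletion, ume6∆, snf2∆ and WT, at 75.5, 46.8, 44.1 and 49.3 RPKM, and the U2 genes the lowest in ume6∆, snf2∆ and WT, at 21.9, 24.2 and 26.4 RPKM. The highest member in every library was PRP43, the helicase that disassembles spent spliceosomes and also works in ribosome assembly, with 132 RPKM in the double deletion, 154 in ume6∆, 99.7 in snf2∆ and 157 in WT. In WT it was followed by CWC21 at 91.2 RPKM and PRP8 at 89.7 RPKM. The lowest in WT were PRP31 at 14.1 RPKM, CWC22 at 15.5 and PRP24 at 17.4.

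**Figure D1:**
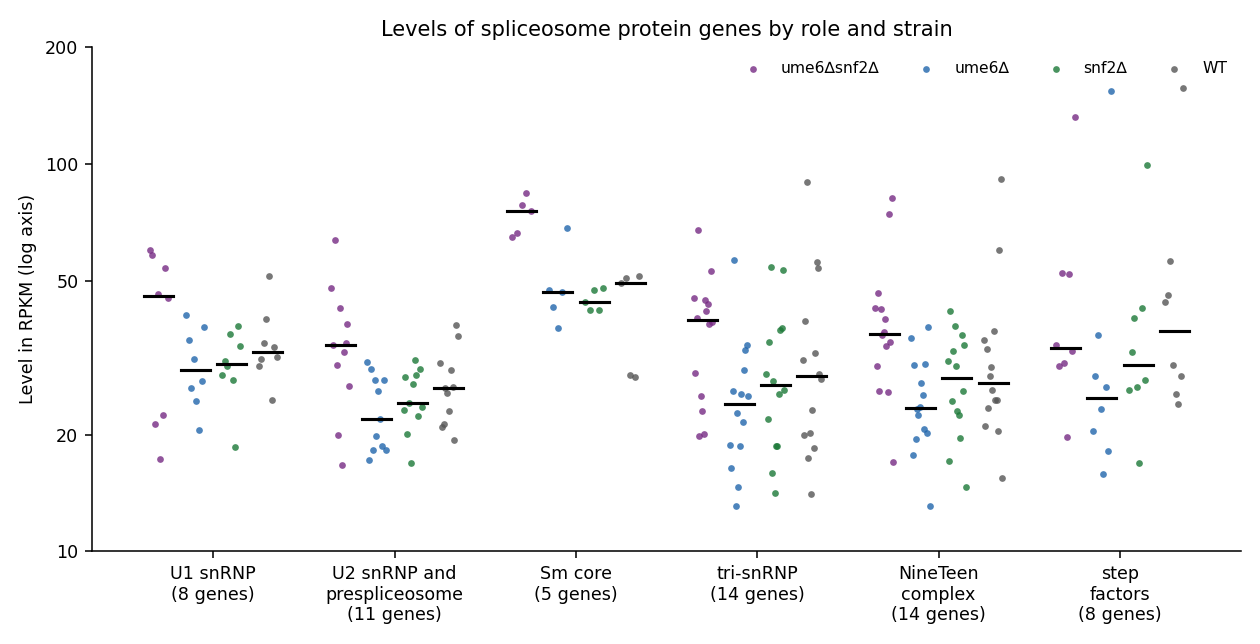
Level in RPKM (log axis) of each of the 60 genes, by role group and strain, with 1 library per strain; each point is a gene and each black bar the group median. The double deletion has the highest median in all groups except the step factors, where WT is highest, and the single high point among the step factors is PRP43.

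Few members changed 2-fold, and their share lay below or near that of all genes. In snf2∆ over WT, 0 of 60 were higher and 2 lower, beside 3.31% and 7.96% of all 6520 genes kept. In ume6∆ over WT, 0 were higher and 4 lower, beside 4.59% and 15.2%. In the double deletion over WT, 6 were higher and 1 lower, beside 10.4% and 9.97%. The double deletion over ume6∆ gave 6 higher and 0 lower, beside 11.1% and 3.45%, and over snf2∆ 6 higher and 0 lower, beside 8.13% and 2.38%. These comparisons share libraries and are not independent. In all, 14 members were called in at least 1 comparison and 46 in none. The share of all genes called in at least 1 comparison was not counted, so the 14 serve only as a list of genes to describe.

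The counts depended on scaling and threshold. When each library was rescaled by its median ratio to the geometric mean of the libraries, the all-gene median of ume6∆ over WT moved to 0.00 on the log2 scale, against -0.30 as deposited, and that of the double deletion over ume6∆ likewise to 0.00, against 0.35. On that scaling snf2∆ over WT gave 0 members higher and 2 lower, beside 3.85% and 6.79% of all genes, and ume6∆ over WT 1 higher (SMD3) and 1 lower (ECM2), beside 8.79% and 8.37%. The double deletion over WT gave the same 6 higher and 1 lower as before, beside 9.51% and 10.7%. The double deletion over ume6∆ gave 0 in either direction, beside 5.08% and 6.64%, and over snf2∆ 3 higher (MSL1, SNU23 and CWC21) and 1 lower (HSH49), beside 6.04% and 3.59%. At 1.5-fold on the deposited scale, 4 members were higher and 8 lower in snf2∆ over WT, beside 9.26% and 18.9%, and 1 and 13 in ume6∆ over WT, beside 10.9% and 33.0%. The double deletion then gave 15 higher and 5 lower over WT, beside 21.9% and 19.2%, 30 and 1 over ume6∆, beside 32.0% and 7.67%, and 18 and 2 over snf2∆, beside 20.1% and 7.48%.

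Relative to all genes, the bulk of the members shifted little in the single deletions and upwards in the double deletion. Their median log2 change was -0.12 in snf2∆ over WT, beside -0.11 for all genes, and -0.25 in ume6∆ over WT, beside -0.30. It was 0.28 in the double deletion over WT, beside 0.06 for all genes, 0.58 over ume6∆, beside 0.35, and 0.37 over snf2∆, beside 0.14. Members above the all-gene median numbered 40 of 60 in the double deletion over WT, 44 over ume6∆ and 50 over snf2∆, against 28 in snf2∆ over WT and 37 in ume6∆ over WT. The double deletion had the highest level of the 4 libraries for 40 members (66.7%), compared with 38.0% of all genes kept. With median ratio scaling it was highest for 31 members (51.7%), compared with 1633 of 6520 genes, and WT for 16, compared with 29.6% of all genes. The members also spread less than all genes did. The interquartile range of the log2 changes was 0.49 in snf2∆ over WT, 0.54 in ume6∆ over WT and 0.71 in the double deletion over WT, compared with 0.62, 0.78 and 0.85 among the 4418 genes whose mean level lay within the members' range of 15.0 to 136 RPKM.

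**Figure D2:**
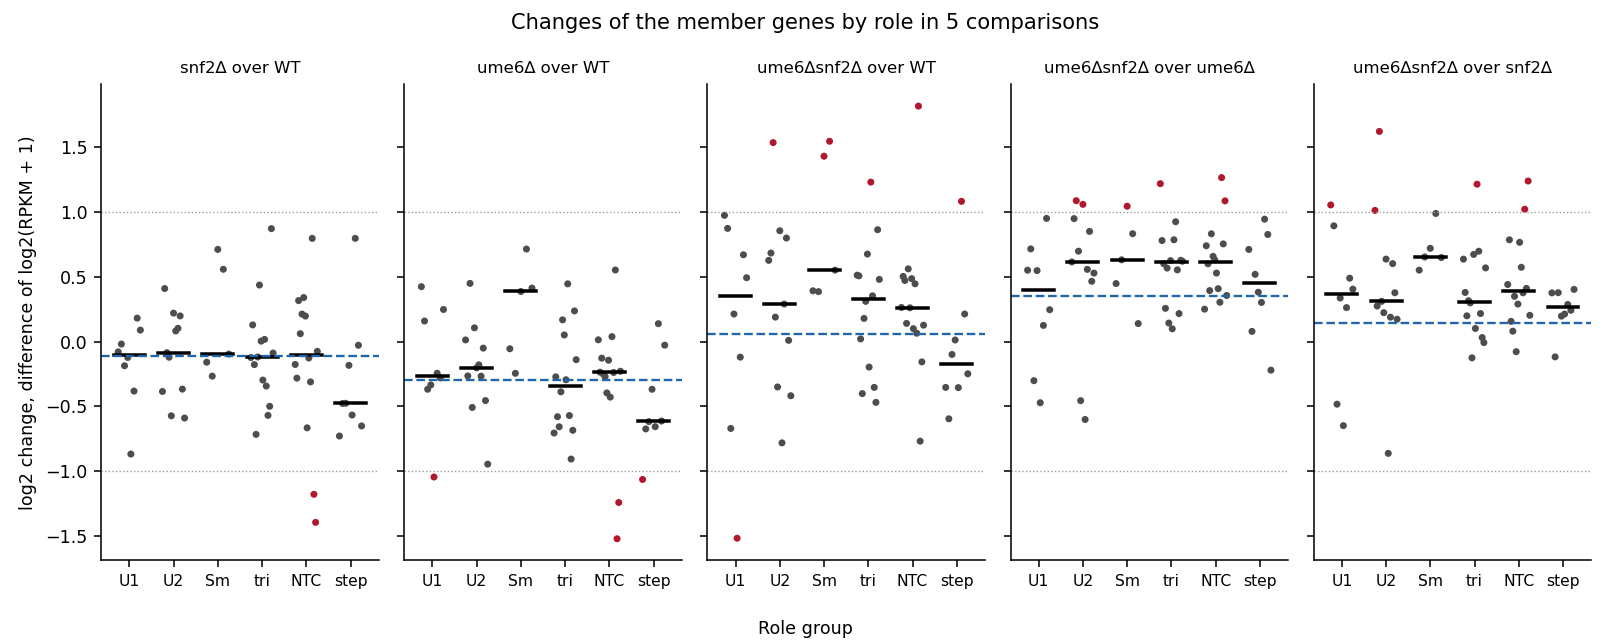
Log2 change of each member in 5 comparisons, by role (U1, U2, Sm ring, tri-snRNP, NTC, step factors); black bars are group medians, the dashed line is the median of all genes and red points passed 2-fold. Step factors lie lowest against WT, and the NTC holds the largest falls in the single deletions and the largest rise in the double deletion over WT.

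By role, the Sm ring and the step factors lay at opposite ends in ume6∆ and in the double deletion over WT, on both scalings. The Sm genes had medians of -0.10 in snf2∆ over WT, 0.39 in ume6∆ over WT and 0.55 in the double deletion over WT, and all 5 had a positive value in the last comparison. The step factors had medians of -0.48, -0.62 and -0.17, and 7 of 8 had a negative value in each single deletion on the deposited scale. Of all 6520 genes kept, 3835 had a negative value in snf2∆ over WT and 4386 in ume6∆ over WT. In the double deletion over WT, 3476 had a positive value. Set against the all-gene median, 2 of the 8 step factors lay above it in each single deletion. The U1 genes had medians of -0.10, -0.26 and 0.35, the U2 genes -0.09, -0.20 and 0.29, the tri-snRNP genes -0.12, -0.34 and 0.33, and the NTC genes -0.10, -0.24 and 0.26 in the same 3 comparisons. Taken as 1 group, the 22 later-step factors had -0.18, -0.26 and 0.13. With median ratio scaling the signs of the medians in ume6∆ over WT turned for U1 (0.03), U2 (0.09), the NTC (0.05) and the later-step factors (0.03), while the Sm genes had 0.68, the tri-snRNP genes -0.05 and the step factors -0.32. In snf2∆ over WT the U2 and Sm medians also turned (0.01 each), the step factors had -0.37, and the U1 median came to 0.00. These are descriptions of small groups in single libraries and no difference between groups was tested.

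Gene length moved with the change. Across the 60 members, Spearman's rho between length and log2 change was -0.31 in snf2∆ over WT, -0.45 in ume6∆ over WT and -0.43 in the double deletion over WT. Across the 5832 kept genes with an annotated length it was -0.08, -0.20 and -0.14. The points of each correlation share their libraries and are not independent. The Sm genes had a median length of 423 bases and the step factors 1726.5 bases. Set against the median of all genes in the same of 5 length classes, the Sm genes remained above by 0.39 and the step factors below by 0.22 on the log2 scale in the double deletion over WT, with values of 0.46 and -0.30 in ume6∆ over WT and 0.0013 and -0.38 in snf2∆ over WT. All 60 members together lay 0.28 above genes of like length in the double deletion over WT. The part of length in these changes was not tested further.

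**Figure D3:**
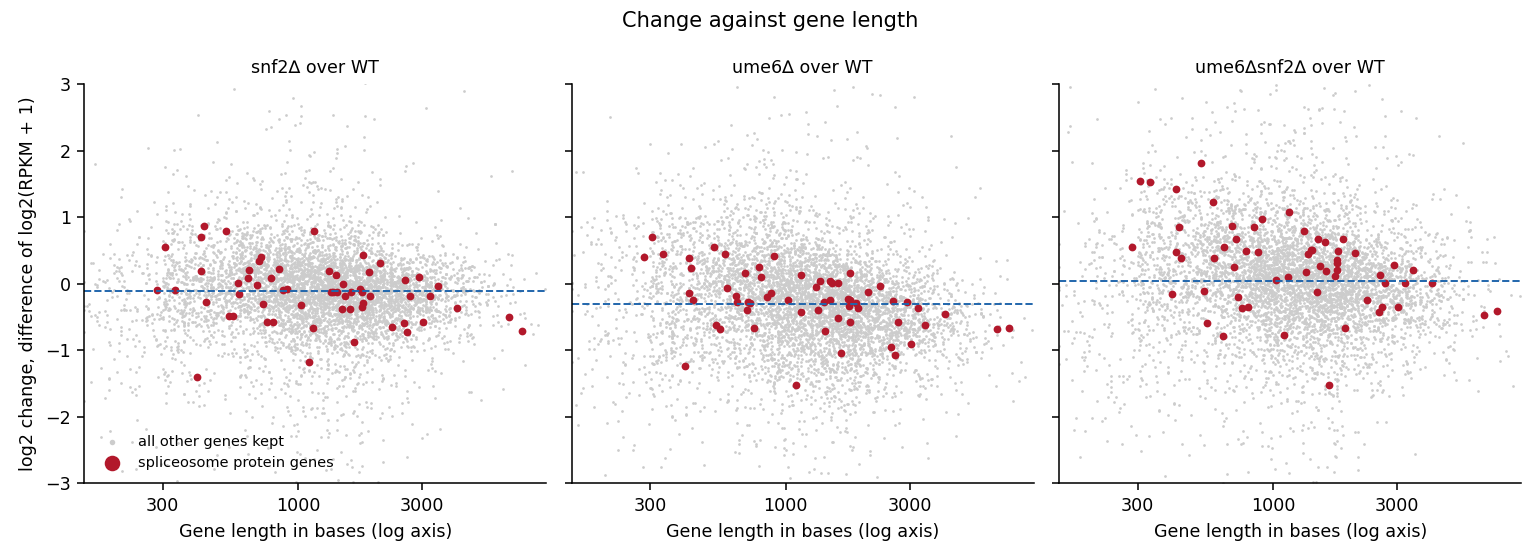
Log2 change against gene length (log axis) for the members in red and the other kept genes in grey, in the 3 comparisons with WT; the dashed line is the median of the other genes, and genes beyond ±3 are not drawn. Short members lie higher than long members in ume6∆ and the double deletion.

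The promoters of the members whose levels differed most are given first, to show what lies before the genes. CWC21 and ECM2 had the largest falls in both single deletions and CWC15 and MSL1 were 2 of the 3 largest rises in the double deletion. Each window runs from 250 bases before the start codon to 50 bases from its first base on, as read from R64 (the sacCer3 assembly), 5′ to 3′ on the coding strand; capitals mark the start codon and any match to the 3 motifs searched. The windows are chrIV:1420789-1421088 on the minus strand for CWC21, chrII:369629-369928 on the minus strand for ECM2, chrIV:781173-781472 on the plus strand for CWC15 and chrIX:374275-374574 on the plus strand for MSL1. The MSL1 window reaches into PRI1, which lies 218 bases upstream on the opposite strand.
CWC21: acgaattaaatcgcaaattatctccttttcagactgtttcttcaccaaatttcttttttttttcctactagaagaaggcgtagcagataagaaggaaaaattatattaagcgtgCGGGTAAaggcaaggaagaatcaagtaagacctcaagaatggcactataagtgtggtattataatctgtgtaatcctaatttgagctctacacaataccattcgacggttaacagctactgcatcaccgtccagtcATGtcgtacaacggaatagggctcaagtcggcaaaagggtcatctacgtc
ECM2: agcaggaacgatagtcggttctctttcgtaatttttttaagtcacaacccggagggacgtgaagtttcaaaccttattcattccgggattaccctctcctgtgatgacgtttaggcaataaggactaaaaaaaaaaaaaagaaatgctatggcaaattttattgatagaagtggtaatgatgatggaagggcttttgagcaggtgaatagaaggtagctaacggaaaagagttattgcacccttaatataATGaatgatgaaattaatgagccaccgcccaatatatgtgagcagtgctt
CWC15: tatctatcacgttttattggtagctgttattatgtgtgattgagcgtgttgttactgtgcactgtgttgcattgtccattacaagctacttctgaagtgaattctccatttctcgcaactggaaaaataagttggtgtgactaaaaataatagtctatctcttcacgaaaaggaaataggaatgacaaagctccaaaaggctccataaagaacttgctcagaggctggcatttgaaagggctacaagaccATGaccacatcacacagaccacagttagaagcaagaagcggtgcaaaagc
MSL1: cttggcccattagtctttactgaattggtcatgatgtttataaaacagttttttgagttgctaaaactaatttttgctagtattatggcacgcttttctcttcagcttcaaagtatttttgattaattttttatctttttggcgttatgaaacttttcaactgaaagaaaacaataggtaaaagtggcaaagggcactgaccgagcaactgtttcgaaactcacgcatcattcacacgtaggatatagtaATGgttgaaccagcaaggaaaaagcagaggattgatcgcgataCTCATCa

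The motifs were GGCGGC, the core of the URS1 element bound by Ume6, GATGAG, the core of the PAC element found before many ribosome assembly genes, and TTACCCG, bound by the general factor Reb1, each on both strands. GGCGGC was in the window of 0 of 60 members, compared with 5.12% of 6020 windows of all protein-coding genes. TTACCCG was in 10 of 60 (16.7%), compared with 7.06% of all windows. In CWC21 it lay on the opposite strand and began 136 bases before the start codon. GATGAG was in 18 of 60, compared with 20.3% of all windows, and its match in MSL1 lay within the coding sequence. No match to any of the 3 was found for ECM2 or CWC15. A match is a string of letters and not a bound site.

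Among the U1 proteins, the largest difference was in PRP42, a structural protein of the yeast U1 snRNP (chromosome IV, 933504 to 935138). PRP42 had 17.3 RPKM in the double deletion, 24.4 in ume6∆, 27.7 in snf2∆ and 51.4 in WT. The 3 deletion strains were all below WT, at a ratio of 0.337 (interval 0.305 to 0.372) for the double deletion, 0.475 (0.443 to 0.509) for ume6∆ and 0.539 (0.502 to 0.579) for snf2∆. Its partner PRP39, another structural protein of the particle, had 21.3, 26.4, 30.1 and 34.4 RPKM in the same order of strains, with a log2 change of -0.67 in the double deletion over WT. SNP1, the counterpart of the human U1 70K protein, had 60.1 RPKM in the double deletion, 40.7 in ume6∆, 28.4 in snf2∆ and 30.1 in WT, and the double deletion was 2.11-fold above snf2∆ (interval 1.91 to 2.34). YHC1, the counterpart of the human U1 protein that touches the 5′ splice site, had 58.3, 35.2, 31.0 and 31.4 RPKM. Those genes of the same particle therefore had changes of opposite sign in the double deletion over WT, -1.52 for PRP42 against 0.97 for SNP1 and 0.87 for YHC1 on the log2 scale. The others of the group, PRP40, SNU56, SNU71 and LUC7, had changes between -0.12 and 0.67 in that comparison. SNU56 was the lowest U1 gene in WT at 24.5 RPKM.

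Among the U2 and prespliceosome proteins, MSL1 had the largest change. It encodes the yeast counterpart of a human U2 protein and binds U2 snRNA with Lea1 (chromosome IX, 374525 to 374860). MSL1 had 63.7 RPKM in the double deletion, 29.5 in ume6∆, 20.1 in snf2∆ and 21.4 in WT, so the double deletion was above each of the others. The ratio was 2.98 to WT (interval 2.50 to 3.56), 2.16 to ume6∆ (1.85 to 2.52) and 3.17 to snf2∆ (2.64 to 3.82). LEA1 had 34.2, 17.2, 28.1 and 20.9 RPKM and did not pass 2-fold. PRP21, of the SF3a unit, had 42.5 RPKM in the double deletion, 19.9 in ume6∆, 27.0 in snf2∆ and 23.1 in WT, a ratio of the double deletion to ume6∆ that passed 2-fold (log2 1.06). Its SF3a partner PRP11 had a log2 change of -0.46 in that comparison, and PRP9, the other partner, 0.70.

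MUD2, which binds introns early together with the branch point binding protein, had 47.8 RPKM in the double deletion, 30.9 in ume6∆, 23.2 in snf2∆ and 30.6 in WT, and passed 2-fold against snf2∆ (log2 1.01). In the SF3b unit, HSH49 lay apart from the rest in the comparisons with the double deletion. It had 16.7 RPKM in the double deletion, 25.9 in ume6∆, 31.2 in snf2∆ and 29.4 in WT, the double deletion being lowest. Its log2 change was -0.78 in the double deletion over WT, where HSH155, CUS1 and RSE1 of the same unit had 0.29, 0.80 and 0.01. Over WT, HSH49 had -0.18 in ume6∆ and 0.08 in snf2∆, each within the range of those genes of its unit. RSE1 was the highest U2 gene in WT at 38.4 RPKM and CUS1 the lowest at 19.4. PRP5, the ATPase of prespliceosome formation, had 26.7 RPKM in the double deletion, 18.2 in ume6∆, 23.6 in snf2∆ and 36.0 in WT, with a log2 change of -0.95 in ume6∆ over WT, short of 2-fold.

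All 5 Sm genes were highest in the double deletion on the deposited scale, whereas with median ratio scaling SME1 was highest in ume6∆ (log2 -0.22 in the double deletion over ume6∆). Sm proteins form the ring around the snRNAs that is needed for snRNP assembly. SMD3 (chromosome XII, 434158 to 434463) had 84.0 RPKM in the double deletion, 46.8 in ume6∆, 41.9 in snf2∆ and 28.2 in WT, a ratio of the double deletion to WT of 2.98 (interval 2.54 to 3.50). SMD2 (chromosome XII, 694378 to 694800) had 78.6 RPKM in the double deletion, 37.6 in ume6∆, 47.4 in snf2∆ and 28.6 in WT, a ratio of 2.75 to WT in the double deletion. For both, each deletion strain lay above WT. SMD1, which pairs with Smd2 in the ring, had 66.5 RPKM in the double deletion, 42.6 in ume6∆, 42.0 in snf2∆ and 50.7 in WT, and SMB1, which pairs with Smd3, had 65.0, 47.4, 44.1 and 49.3 RPKM. SME1 was the highest Sm gene in WT, at 51.3 RPKM, and had 75.5 in the double deletion. SMD3 had the lowest WT level of the 5. In the double deletion over WT the pair that passed 2-fold therefore differed from its ring partners, whose log2 changes were 0.38 for SMD1 and 0.39 for SMB1. In snf2∆ over WT, SMD2 and SMD3 had log2 changes of 0.71 and 0.56 and the other 3 members of the ring between -0.27 and -0.10. The Sm genes SMX2 and SMX3, which are not members, had -0.35 and 0.30 in snf2∆ over WT. In the double deletion over WT they had 0.67 and 0.80.

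In the tri-snRNP group, the large core proteins of U5 were lower in the deletion strains than in WT without reaching 2-fold. SNU23 was the 1 member of the group to pass 2-fold in the double deletion over WT. PRP8, the protein at the catalytic centre, had 67.7 RPKM in the double deletion, 56.5 in ume6∆, 54.2 in snf2∆ and 89.7 in WT, with log2 changes of -0.40, -0.66 and -0.72. BRR2, the helicase that unwinds U4 from U6, had changes of -0.47, -0.68 and -0.50 in the same strains, and SNU114, the GTPase of U5, -0.35, -0.91 and -0.57. PRP8, BRR2 and SNU114 fall in the class of genes longer than 2500 bases. All genes of that class had medians of -0.12 in the double deletion, -0.53 in ume6∆ and -0.16 in snf2∆ over WT. SNU23, a small protein of the tri-snRNP (chromosome IV, 284581 to 285165), had 44.5 RPKM in the double deletion, 25.4 in ume6∆, 18.7 in snf2∆ and 18.4 in WT. It was 2.42-fold higher in the double deletion than in WT (interval 2.08 to 2.80) and 2.39-fold higher than in snf2∆ (2.05 to 2.78).

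DIB1, a small U5 protein, had 53.0 RPKM in the double deletion and 53.3 in snf2∆, against 34.0 in ume6∆ and 28.7 in WT. It had the largest rise among the members in snf2∆ over WT, at 1.86-fold (interval 1.62 to 2.13), which did not pass 2-fold. Both libraries without SNF2 lay above both libraries with it. PRP3, of the U4/U6 snRNP, had 45.0 RPKM in the double deletion, 18.8 in ume6∆, 28.6 in snf2∆ and 31.3 in WT, and passed 2-fold in the double deletion over ume6∆ (log2 1.22). Its partner PRP4 had a log2 change of 0.78 in that comparison. PRP31, the lowest of the group in WT, had 23.1, 14.6, 14.1 and 14.1 RPKM. The other members, PRP6, PRP24, PRP28, PRP38, SNU66 and SPP381, had changes between -0.20 and 0.48 in the double deletion over WT.

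**Figure D4:**
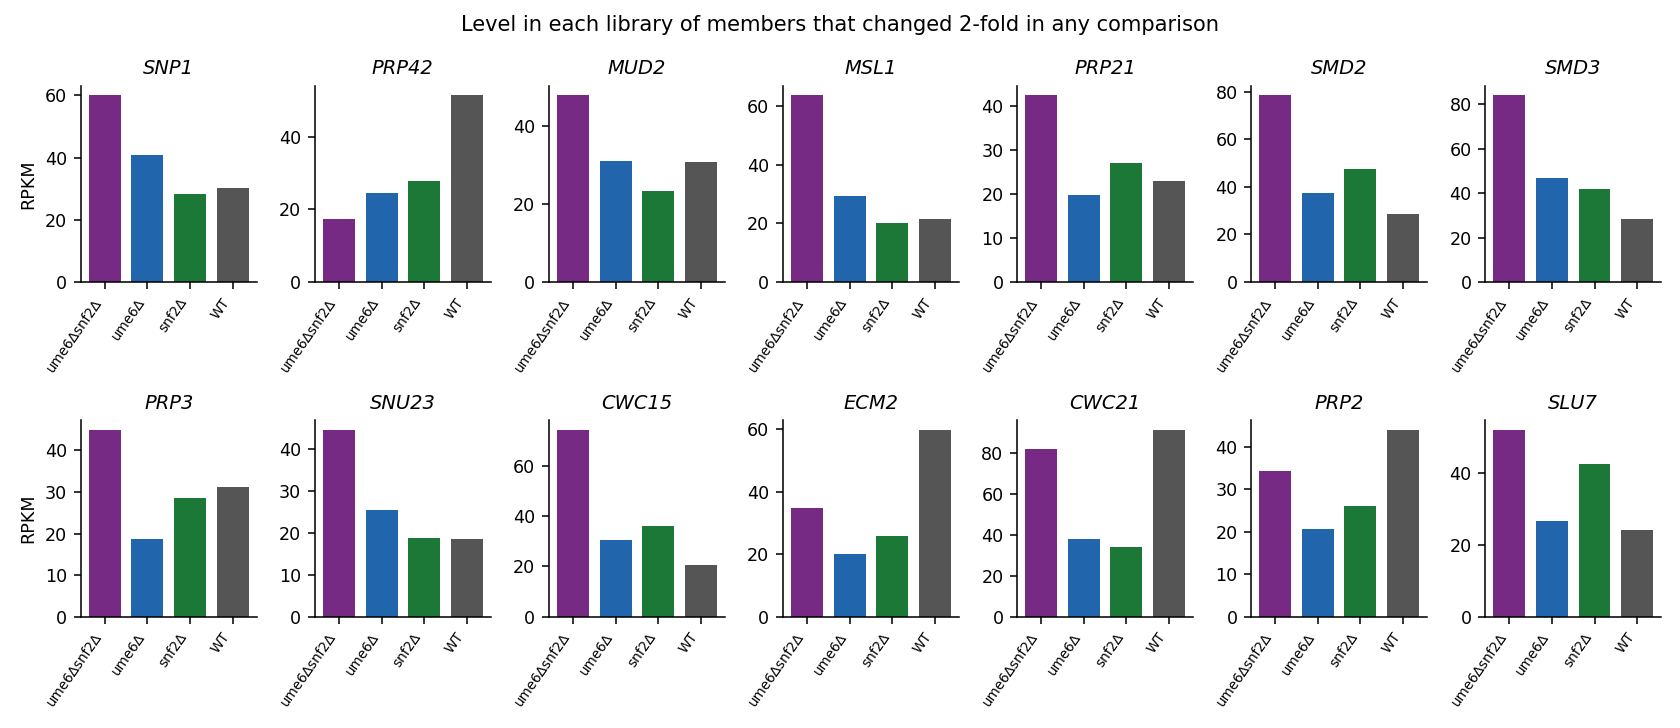
Level in RPKM (bars from 0, each panel with its own scale) in each library of the 14 members that passed 2-fold in any of the 5 comparisons, with 1 library per bar and no error bar. SNP1, MUD2, MSL1, PRP21, SMD2, SMD3, PRP3, SNU23, CWC15 and SLU7 are highest in the double deletion. PRP42, ECM2, CWC21 and PRP2 are highest in WT.

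The NTC group held the largest rise and, in the single deletions, the largest falls of any members. It is named after Prp19, a ubiquitin ligase, and stabilises the catalytic spliceosome. CWC21, a small protein near the catalytic centre and the yeast relative of human SRRM2 (chromosome IV, 1420431 to 1420838), had 81.7 RPKM in the double deletion, 38.0 in ume6∆, 34.1 in snf2∆ and 91.2 in WT. The single deletions were both low, at ratios to WT of 0.417 (interval 0.373 to 0.465) for ume6∆ and 0.374 (0.330 to 0.422) for snf2∆. The double deletion was close to WT (log2 -0.16) and 2.15-fold above ume6∆ (interval 1.90 to 2.43) and above snf2∆ by 1.24 on the log2 scale (ratio interval 2.10 to 2.74). ECM2, which binds the U6 and U2 RNAs in the active spliceosome (chromosome II, 368584 to 369678), had 34.7 RPKM in the double deletion, 20.2 in ume6∆, 25.9 in snf2∆ and 59.8 in WT. All 3 deletion strains were below WT, at ratios of 0.580 (interval 0.530 to 0.635), 0.338 (0.309 to 0.369) and 0.433 (0.397 to 0.472) for the double deletion, ume6∆ and snf2∆.

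CWC15, a small protein of the complex (chromosome IV, 781423 to 781950), was the opposite case. It had 74.3 RPKM in the double deletion, 30.4 in ume6∆, 36.2 in snf2∆ and 20.4 in WT. Each deletion strain lay above WT and the double deletion above both others, with a ratio to WT of 3.64 (interval 3.17 to 4.18) that was the largest change of any member in the 5 comparisons. PRP19 itself had 42.4, 35.5, 31.0 and 35.2 RPKM, with log2 changes between -0.18 and 0.26 against WT. CEF1 and CLF1, core proteins of the complex, had log2 changes of 0.50 and 0.47 in the double deletion over WT. SYF1, SYF2, ISY1, NTC20, PRP45, PRP46, CWC2 and CWC22 had changes between 0.06 and 0.56 in that comparison. CWC22 was the lowest of the group in WT.

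Among the step factors, PRP2, the ATPase that starts catalysis, had 34.2 RPKM in the double deletion, 20.5 in ume6∆, 26.1 in snf2∆ and 43.9 in WT. It passed 2-fold in ume6∆ over WT, at a ratio of 0.467 (interval 0.439 to 0.496). Its cofactor SPP2 had log2 changes of -0.60, -0.67 and -0.48 in the double deletion, ume6∆ and snf2∆ over WT, and the first-step factor CWC25 had 52.3, 36.2, 40.1 and 56.1 RPKM, both below WT in each deletion strain. For CWC25 the ratio of the double deletion to WT was 0.932, with an interval of 0.832 to 1.04 that includes no change. The second-step factor PRP18 was also below WT in each deletion strain, with log2 changes of -0.36, -0.66 and -0.57 in the double deletion, ume6∆ and snf2∆. SLU7, which works with Prp18 at the second step, had 51.9 RPKM in the double deletion, 26.5 in ume6∆, 42.4 in snf2∆ and 24.0 in WT, and passed 2-fold in the double deletion over WT (log2 1.08). It was the lowest step factor in WT, and it was among the 3 largest rises of the members in snf2∆ over WT (log2 0.79). PRP16 and PRP22, the ATPases of the second step and of message release, had log2 changes of 0.01 and 0.21 in the double deletion over WT. PRP43 had -0.25 in the double deletion, -0.03 in ume6∆ and -0.65 in snf2∆ over WT.

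Loss of Snf2 can be read in cells with Ume6 and in cells without it from 4 different libraries. Both of those comparisons also differ in STE2 and STE3, and each comparison with the double deletion in MET17 and LYS2. Across the members, Pearson's r between the 2 sets of log2 changes was 0.33 and Spearman's rho 0.43, and across all 6520 genes 0.37 and 0.22. For loss of Ume6 in the 2 backgrounds they were 0.37 and 0.39 across the members and 0.40 and 0.32 across all genes. Genes are not independent replicates, and the values share libraries within each set. The change on losing Snf2 was larger by a median of 0.63 on the log2 scale without Ume6 than with it, beside 0.48 for all genes. That difference was at least 1 for 10 members (16.7%), beside 21.5% of all genes kept, and was largest for CWC21 at 2.48 and ECM2 at 1.93.

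Neighbouring genes were looked at for the 14 members that passed 2-fold. CNM1, 399 bases beyond the end of ECM2 on the same strand, had 19.2 RPKM in the double deletion, 19.0 in ume6∆, 23.3 in snf2∆ and 52.3 in WT, below WT in each deletion strain as ECM2 was. NRG2, upstream of ECM2 on the same strand, had log2 changes of 1.44 in the double deletion, -0.45 in ume6∆ and -0.06 in snf2∆ over WT. Both neighbours of MSL1 were highest in the double deletion. PRI1, upstream on the opposite strand, had a log2 change of 1.27 over WT and DSN1, downstream on the same strand, 1.65. URK1, upstream of PRP2 on the opposite strand, had log2 changes of -0.82 in the double deletion, -1.08 in ume6∆ and -1.40 in snf2∆ over WT. Beside CWC15, NBP2 and SEC1 had log2 changes of 1.06 and 0.22 in the double deletion over WT. Beside SNP1, YIL060W and ARC15 had 1.10 and 0.96. Beside CWC21, KRE2 had -0.65, -0.89 and -0.80 in the double deletion, ume6∆ and snf2∆ over WT, and PHO8 -0.68, -1.29 and -0.33. For PRP42, MUD2, PRP3, SNU23 and SLU7, neighbours with a value had changes between -0.81 and 0.79 in the double deletion over WT. PRP3 and MUD2 did not pass in that comparison. In the double deletion over ume6∆, where PRP3 passed, JIP4 and TRS31 beside it had 0.88 and 0.45. Over snf2∆, where MUD2 passed, LHS1 and AAN1 had 0.54 and 0.34. In ume6∆ over WT, where PRP42 also passed, LYS4 and FMN1 had -0.27 and -0.68. For SMD2, PRP21 and SMD3, the annotated neighbours had changes between -0.70 and 0.58 in the double deletion over WT. PRP21 passed only in the double deletion over ume6∆, where RCY1 and ECM25 beside it had -0.12 and 0.57. By annotation, 3 members overlap another gene, each on the opposite strand. SMD1 and PRP38 overlap each other by 6 bases, and CWC25 overlaps VPS75 by 4 bases. The library kit does not mark strand, so reads of overlapping genes cannot be told apart.

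The intron of SMD2 is shown because SMD2 is the member with an annotated intron in the splicing table, and its product is part of the machinery that removes it. The intron is 90 bases long at chrXII:694383-694472 on the plus strand of R64. Capitals mark the 5′ splice site, the branch site and the last bases of the intron.
SMD2 intron: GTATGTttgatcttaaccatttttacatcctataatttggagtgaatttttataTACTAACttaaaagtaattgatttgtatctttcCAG
The 5′ splice site GTATGT, the branch site TACTAAC and the 3′ end CAG are all present, with 29 bases between the branch site and the end of the intron. The same 5′ site and branch site were found in the annotated introns of the other splicing genes in the table, MUD1, STO1, YSF3, LSM2 and LSM7.

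The authors' deposited splicing efficiency, a fraction without a stated formula, was given for introns of 2 members. For SMD2 it was 0.723 in the double deletion, 0.712 in ume6∆, 0.729 in snf2∆ and 0.729 in WT, slightly above the median of all introns in each library (0.688, 0.693, 0.701 and 0.675). The snf2∆ and WT values of SMD2 were equal to within 1e-06, as were those of 1 other intron above 0, in REC102, among 293 with a value in both. Whether they are separate measurements is not known, so the pair is not compared. Between the double deletion and ume6∆ the SMD2 efficiency differed by 0.0105, while its level was 78.6 and 37.6 RPKM. For PRP5 the fraction was 0.0555 in the double deletion, 0.0841 in ume6∆, 0.161 in snf2∆ and 0.0906 in WT, with 4.07% to 9.52% of introns below it in each library. The annotation used here gives PRP5 as a single exon, so the position of that intron is not known.

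**Figure D5:**
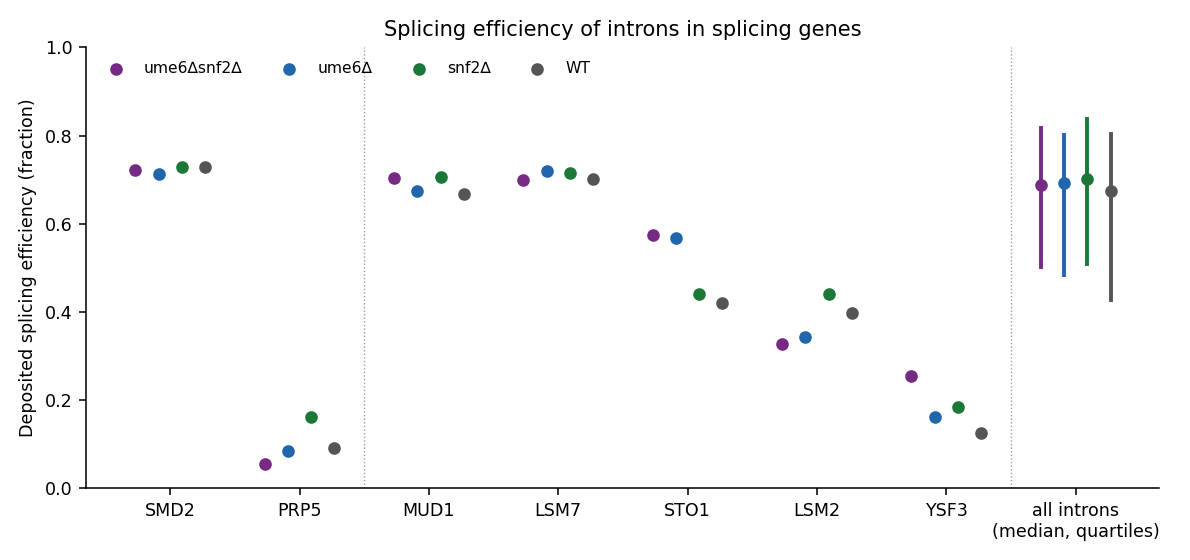
Deposited splicing efficiency (fraction, 0 to 1) in each strain for introns of the members SMD2 and PRP5, then of 5 other splicing genes, with the median and quartiles of all introns at the right. SMD2 lies near the median intron in every library and PRP5 near the bottom.

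Across all introns, the median difference in efficiency was 0.00178 in the double deletion over WT, 0.000505 in ume6∆ over WT and 0.00891 in snf2∆ over WT. A higher fraction than in WT was found for 52.0% of introns in the double deletion, 52.4% in ume6∆ and 71.3% in snf2∆. These are shares of introns in single libraries. Any relation between them and the levels of the members was not tested.

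Other genes of the pathway that are not members were followed as a list of 36, among them the Lsm2-8 ring of U6, the RES complex and the cap-binding complex. In snf2∆ over WT 1 was higher (2.78%) and 1 lower (2.78%), beside 3.31% and 7.96% of all genes. In ume6∆ over WT 1 was higher (2.78%) and 3 lower (8.33%), beside 4.59% and 15.2%. In the double deletion over WT 6 were higher (16.7%) and 0 lower, beside 10.4% and 9.97%. Their median log2 changes were -0.06, 0.06 and 0.27 in these comparisons, beside -0.11, -0.30 and 0.06 for all genes. With median ratio scaling the balance in ume6∆ over WT turned to 8 higher and 1 lower, beside 8.79% and 8.37% of all genes. On that scaling snf2∆ over WT gave 1 higher and 0 lower, beside 3.85% and 6.79%. The double deletion over WT again gave 6 higher and 0 lower, beside 9.51% and 10.7%. In snf2∆ over WT those that passed were IST3, of the RES complex (log2 1.14), and NTR2, of spliceosome disassembly (-1.06). In ume6∆ over WT they were LSM4 (123 RPKM in ume6∆ and 60.8 in WT), NTR2 (-1.29), BUD31 (-1.14) and BRR1, an snRNP assembly factor (-1.05). With median ratio scaling BUD31 (-0.85) and BRR1 (-0.76) did not pass, while IST3 (1.22), RDS3 of the SF3b unit (1.21) and LSM2, LSM3, LSM5, LSM6 and LSM7 (1.15 to 1.23) did. In the double deletion over WT they were IST3 (2.80), its partner BUD13 (1.22), LSM3 (1.66), LSM8 (1.52), LSM4 (1.38) and LSM5 (1.26). IST3 had 104 RPKM in the double deletion, 27.7 in ume6∆, 32.3 in snf2∆ and 14.1 in WT. The genes of the Lsm ring, which binds U6, all had a positive value in ume6∆ over WT, with a median of 0.89 (1.19 with median ratio scaling). Of all 6520 genes kept, 2132 had a positive value there on the deposited scale. LSM7 was lower in the double deletion, with 40.3 RPKM against 98.3 in ume6∆, 58.3 in snf2∆ and 54.2 in WT.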

How the data were processed

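The authors deposited expression as RPKM per gene for each strain and splicing efficiency as a fraction per intron or isoform (the snf2∆ column with 4 cells that hold no number). Per the submitters' processing notes the tools included CASAVA and STAR 2.4.0 and the build was sacCer3, without their roles. How reads were counted, on which annotation, and the splicing formula: not given in the sources used here. Lines named by 1 letter (3) were dropped (0.0811% to 0.221% of each library's summed RPKM). Of 6659 genes, 5910 were matched to R64 and 749 were not, so overlaps with the unmatched genes were not looked for. RPKM multiplied by annotated gene length gave whole reads for 99.5% to 99.6% of values at a tolerance of 0.05 reads, and these reads gave the depths and intervals. PCR reads are not independent molecules.

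Log2 changes used a pseudocount of 1 RPKM over the 6520 genes at or above a mean of 1 RPKM. No test across replicates was possible. Alternatives were median ratio scaling, pseudocounts of 0.1 and 5 RPKM, no filter, a mean of at least 10 RPKM, a threshold of 1.5-fold and other intron backgrounds. The comparison with genes of like length was added after values were seen. The members, lists and role groups were chosen with earlier results of these data known. Members were named if they passed 2-fold in any comparison, were among the 3 largest rises or falls of a comparison, were highest or lowest of their role group in WT or had a listed intron; others are given for their role beside these. Motifs were searched in windows of 250 bases before and 50 after the first base of the start codon. The neighbour genes, STE2, STE3, MET17, LYS2 and REC102 were named after their values were seen. Python 3.11.15, NumPy 2.4.6, pandas 2.3.3, SciPy 1.17.1 and Matplotlib 3.10.9 were used, and the code was tested on simulated data.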

Additional observations from a re-analysis of the deposited data

Results flagged for a closer look

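CWC21 moved in opposite directions on losing Snf2 in the 2 backgrounds. Its log2 change was 1.08 in the double deletion over ume6∆ and -1.39 in snf2∆ over WT, a difference of 2.48. Loss of Ume6 gives the same difference by arithmetic, with 1.24 in the double deletion over snf2∆ and -1.24 in ume6∆ over WT (2.48). It was the 1 member whose changes had opposite signs, each at least 1.5-fold with a counting interval that leaves out no change, under both scalings. With 1 library per strain the difference was not tested.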

How the results depend on the processing

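No paired analysis was possible because each strain has 1 library, and for the same reason no replicate could be left out. No named member's called change reversed under any alternative run. With median ratio scaling, ume6∆ over WT gave 1 member higher and 1 lower (all genes 8.79% and 8.37%). On that scaling the double deletion gave 0 higher over ume6∆ (5.08%), and 3 higher and 1 lower over snf2∆ (6.04% and 3.59%). With a pseudocount of 5 RPKM, ume6∆ over WT gave 2 lower (10.1% of all genes), and the double deletion 3 higher over ume6∆ (5.90%) and 3 higher over snf2∆ (5.15%). At 1.5-fold the members higher and lower were 4 and 8 in snf2∆ over WT (all genes 9.26% and 18.9%), 1 and 13 in ume6∆ over WT (10.9% and 33.0%), 15 and 5 in the double deletion over WT (21.9% and 19.2%), 30 and 1 over ume6∆ (32.0% and 7.67%), and 18 and 2 over snf2∆ (20.1% and 7.48%). The looser threshold itself makes these counts larger. With a pseudocount of 0.1, no filter or a mean of at least 10 RPKM the counts stayed within 1.5 times. Set against introns outside ribosomal protein genes, the SMD2 efficiency lay above the median by 0.0866 in the double deletion, 0.0996 in ume6∆, 0.0870 in snf2∆ and 0.125 in WT, compared with 0.0343, 0.0192, 0.0282 and 0.0538 against all introns. The PRP5 differences there were -0.581, -0.529, -0.481 and -0.513. The median shift of the members in the double deletion over WT was 0.22 against all genes, 0.28 against genes of like length and 0.22 against genes of like level. Depth limits the short members most: the ratio of MSL1 in the double deletion to WT has a counting interval of 2.50 to 3.56.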
